A study of Mus musculus with 6 samples.

Results

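The livers compared here came from C57BL/6J mice, an inbred strain, fed either a control diet or a high-fat diet (HFC in the design text) and taken at week 2. Each diet has 1 array at that week, so the comparison rests on 2 of the 6 arrays of the series, which also holds 1 array per diet at weeks 4 and 10. The design assigned mice at random to the diets and followed hepatic transcripts, with enzymes of lipid metabolism in view. The composition of the diets, the sex and age of the mice, the hour of collection and the number of mice behind an array are not stated in the labels or the series text. Each array measured RNA abundance as a fluorescence signal per probe set, a group of short probes against 1 transcript, and a gene can have several probe sets. Both arrays are of the smaller Affymetrix mouse design with 22690 probe sets.

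Fat-rich feeding reaches the liver through several well-studied routes. Fatty acids taken up from the blood are stored in lipid droplets, burned in mitochondria and peroxisomes, or exported in lipoproteins, and dietary sterol lowers the liver's own sterol synthesis through the SREBP-2 pathway. The liver also runs a strong daily clock, in which the activators Arntl and Clock drive repressors that in turn hold the activators down, and feeding is one of its time cues. A further large set of liver genes, the cytochrome P450 enzymes and the transferases that conjugate their products, handles drugs, plant compounds and lipid peroxides.

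The control array had been scaled by the authors to a trimmed mean of 799.7 and the high-fat array to 499.7, so both were first set to a common centre. Signals below were taken after that step, and differences are high-fat minus control on the log2 scale, where 1 is a 2-fold difference. Signals under 155 were treated as background and set to this floor, and a difference with an array at the floor is a bound, written "at least". Of the probe sets, 64.9% passed the floor in the control liver and 62.0% in the high-fat liver. The 3'/5' ratio of pyruvate carboxylase, which grows as RNA is degraded or copied less completely, was 3.82 in the control liver and 9.64 in the high-fat liver, and that of beta-actin was 1.20 and 1.61. The part of RNA quality in the differences below was not tested. With no second array of a diet at this week no difference could be tested, and each is given as a size.

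The filter kept 8846 genes, those that passed the floor on 3 or more of the 6 arrays. Of these, 604 (6.83%) were higher in the high-fat liver by 1.5-fold or more and 778 (8.79%) were lower. At least 2-fold, 107 (1.21%) were higher and 140 (1.58%) lower. With both arrays quantile normalized 173 were at least 2-fold higher and 135 lower, so that the higher genes made up 56.2% of them in place of 43.3%, and with a loess correction for brightness they made up 56.9%. The standard deviation of the differences was 0.43 over all genes, 0.48 among the 2212 dimmest genes and 0.34 among the 2212 brightest, so bright genes gave the narrower background. Between the 2 control arrays of weeks 2 and 10, which share the diet, 5.28% of genes differed at least 2-fold, against 2.79% between the diets at week 2, the control array of week 2 being common to both figures. Fewer genes thus differed between the diets at week 2 than between these control arrays.

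**Figure D1:**
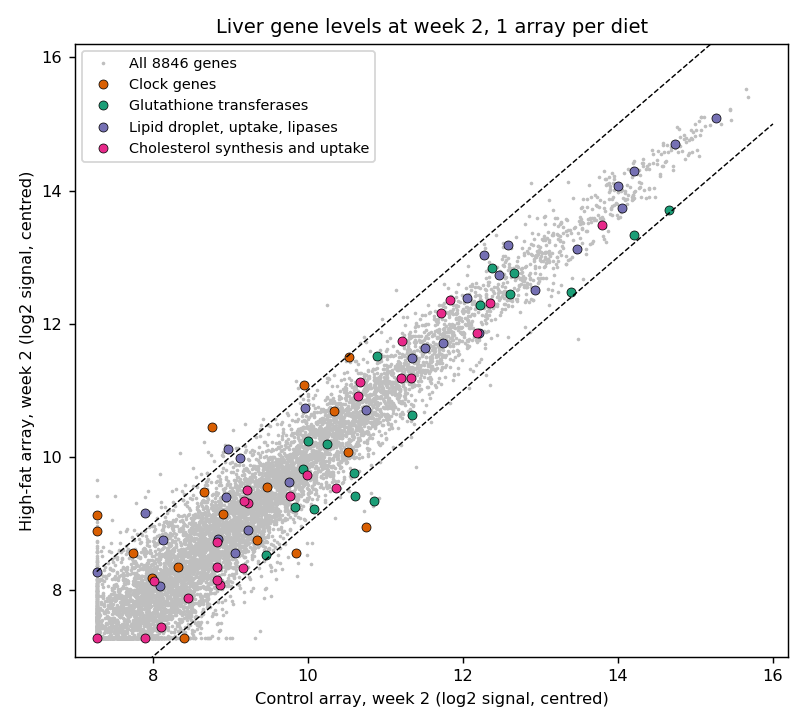
Each point is a gene, placed by its centred log2 signal on the control array (horizontal axis) and the high-fat array (vertical axis) of week 2, and the dashed lines mark a 2-fold difference. Most of the 8846 genes lie between the lines, while 10 of 18 glutathione transferases were at least 1.5-fold below the diagonal and clock genes lie on both sides of it.

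Since the arrays have no replicate, the further probe sets of a gene were the measure of error available. For 2647 genes a second probe set was above the floor on both arrays. The standard deviation of the difference of a single probe set, taken from such pairs, was 0.40 on the log2 scale. Genes are not independent replicates, and across them Pearson's r between the differences of both probe sets was 0.14, and it was 0.38 at week 4 and 0.23 at week 10. Of 348 genes at least 1.5-fold different on the brightest probe set, 202 (58.0%) had the same sign on the next. Among the 882 genes whose dimmer probe set was brightest, 18 genes were at least 1.5-fold different on both and 17 of these had the same sign, against 16 of 27 among the 883 whose dimmer probe set was dimmest. A single probe set of a dim gene at week 2 is therefore weak evidence, and the further probe sets are given with the genes described below.

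**Figure D2:**
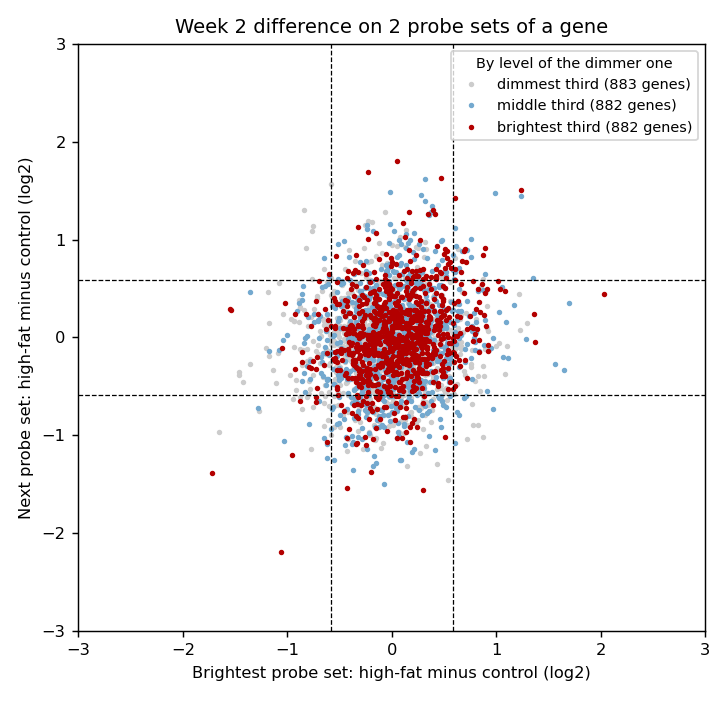
Each point is 1 of 2647 genes with the week 2 difference on its brightest probe set (horizontal axis) and on the next (vertical axis), in log2 units, coloured by the level of the dimmer probe set, with dashed lines at 1.5-fold. The cloud is close to round (r = 0.14), and the few genes far out in the same direction on both axes include Cyp2b10, Cyp7a1 and Apoa4.

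Every probe set above the floor had the same sign, with at least 2 of them 1.5-fold or more different, for 74 of the 2647 genes (2.80%), 32 higher and 42 lower. The share was 4.94% at week 4 and 7.13% at week 10. Among the higher genes at the top, ranked by the median over probe sets, stood Cpt1a, Apoa4, Trib3, Krt8, Acaa1a, Ddx17, Smarcd2, Scarb1, Hnrnpa1, Tspan31 and Bdh1. The lower genes began with Cyp2b10, Cyp7a1, Nck1, Dnajb4, Gnb4, Dcun1d1, Golph3, Zfp787, Gfra1, Gstm1, Ccng2 and Rnf13. Those that belong to a gene group below are described with it.

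Clock genes lay far out on both sides. Of 22 clock genes 20 were measured and 17 passed the filter on low values, and of these 7 were higher by 1.5-fold or more and 4 lower, where 6.83% and 8.79% of all genes were. With the mean of all probe sets 4 were higher and 4 lower, against 4.33% and 6.28% of all genes. On the second brightest probe set, which 8 clock genes had, 1 was higher and 2 lower. Over all genes with such a probe set, 8.5% were higher and 12.4% lower. Arntl, Nfil3, Cry1 and Noct lay low on the high-fat array, and Dbp, Nr1d1, Cry2, Nr1d2, Tef, Bhlhe40 and Per3 lay high. Per3, Tef, Cry1 and Nfil3 are the members among these 11 whose promoter holds a letter match to an element of the clock before its start. Their windows, with that of the sterol enzyme Hmgcs1 described further on, are printed here from RefSeq (GRCm38.p6), 5′ to 3′ on the strand of the gene, with the matched letters in capitals.
Per3, D-box: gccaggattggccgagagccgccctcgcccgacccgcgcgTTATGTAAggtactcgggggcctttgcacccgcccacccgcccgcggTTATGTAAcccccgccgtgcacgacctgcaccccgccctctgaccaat
Tef, E-box: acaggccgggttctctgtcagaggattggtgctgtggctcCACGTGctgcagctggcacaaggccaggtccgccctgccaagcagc
Cry1, E-box: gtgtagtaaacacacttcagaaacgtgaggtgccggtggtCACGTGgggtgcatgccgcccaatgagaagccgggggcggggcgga
Nfil3, ROR element: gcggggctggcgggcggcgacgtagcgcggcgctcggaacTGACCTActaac
Hmgcs1, sterol element: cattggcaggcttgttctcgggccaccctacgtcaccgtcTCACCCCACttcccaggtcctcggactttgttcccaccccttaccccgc

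The window of Per3 lies at chr4:151044776-151044910 on the minus strand, that of Tef at chr15:81802506-81802591 on the plus strand and that of Cry1 at chr10:85185069-85185154 on the minus strand. The window of Nfil3 lies at chr13:52981040-52981091 on the minus strand and that of Hmgcs1 at chr13:119690174-119690262 on the plus strand. All lie before the annotated start of the gene. The motifs were searched on both strands as CACGTG for the E-box, bound by Arntl with Clock, TTATGTAA or TTACGTAA for the D-box, bound by Dbp, Tef, Hlf and Nfil3, TAGGTCA or TGGGTCA for the element of the ROR and Rev-erb receptors, and TCACNCCAC for the sterol element of SREBP. None of these strings contains another, and the capitals of Nfil3 show the reverse complement. Over 32851 promoters of 250 bases before to 50 bases after a start, 7.15% held the E-box, 1.06% the D-box, 6.45% the ROR element and 1.24% the sterol element. Tef has a second promoter in the table, which also holds an E-box. Of the 22 clock genes 18 had a promoter in the table, and 5 of them held the E-box, 1 the D-box and 2 the ROR element. These matches describe letters in a window and are no evidence of binding in these livers.

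Among the activators, Arntl, the obligate partner of Clock, had a signal of 925 in the control liver and 377 in the high-fat liver, a difference of -1.30 on its single probe set. Clock itself had 482 and 568, a difference of 0.24, and -0.41 on its other probe set, so its direction depended on the probe set. Rora, an activating nuclear receptor, had 0.35, with -0.17 and -0.18 on its other probe sets.

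Among the repressors, Nr1d1, which encodes Rev-erb alpha and represses Arntl and Nfil3, had a signal of 435 in the control liver and 1399 in the high-fat liver, a 3.22-fold difference. Nr1d2, which encodes Rev-erb beta, had 987 and 2175 (1.14), but on a dimmer probe set 308 on the control and the floor on the high-fat array, a bound of -0.99. Cry2 was at the floor on the control array and at 476 on the high-fat array, at least 3.06-fold higher. Bhlhe40, a repressor that also answers to feeding, had 406 and 713 (0.81). Per3 had 215 and 375 (0.80), and its 2 other probe sets lay the other way with the high-fat array at the floor. Cry1, a late repressor, went the other way from these, at 339 on the control array and at the floor on the high-fat array, at least 2.18-fold lower. Per1 was level at 0.02.

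Among the output factors, which carry the clock to metabolic genes, Dbp was at the floor on the control array and at 558 on the high-fat array, at least 3.59-fold higher, and its other probe set was at the floor and 739.8. Tef, a relative of Dbp that binds the same D-box, had 1477 and 2899 (0.97), with a dimmer probe set at 241 on the control and the floor on the high-fat array. Nfil3, which competes with Dbp and Tef for the D-box and represses, had 1717 and 493, 3.48-fold lower. Noct, a rhythmic phosphatase, had 652 and 432 (-0.59), and Hlf 0.07. Dbp and its rival Nfil3 thus lay at opposite ends of the group.

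**Figure D3:**
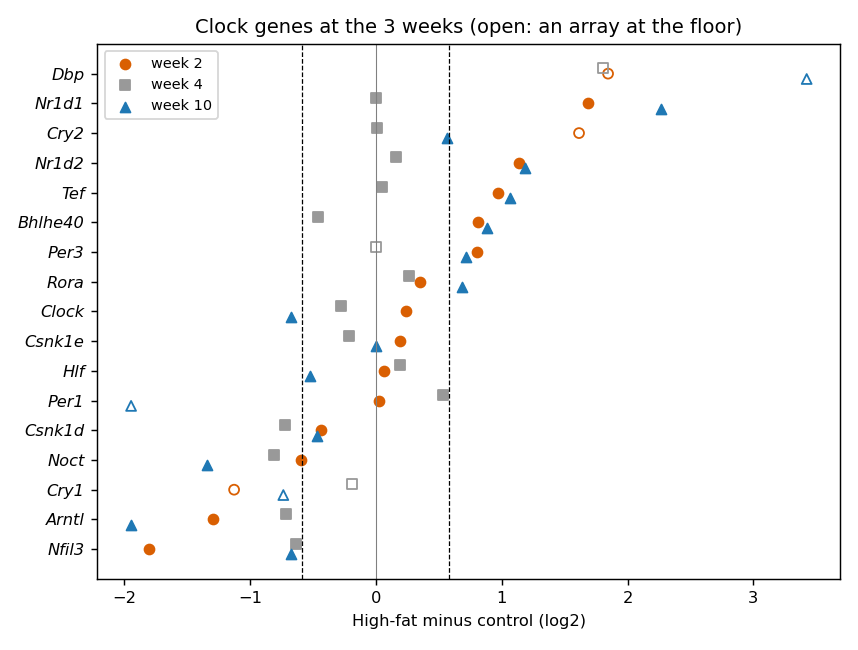
Log2 difference, high-fat minus control (horizontal axis), of the 17 clock genes that passed the filter, ordered by week 2 and drawn for weeks 2, 4 and 10, with open symbols where an array was at the floor and dashed lines at 1.5-fold. At week 2 the genes run from -1.80 (Nfil3) to at least 1.85 (Dbp), and the medians were 0.24 at week 2 and 0.00 at weeks 4 and 10.

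At week 10, where 13.5% of all genes were higher by 1.5-fold or more and 12.7% lower, 7 of the 17 clock genes were higher and 6 lower. Nr1d1 had 1.69 at week 2 and 2.27 at week 10, Nr1d2 1.14 and 1.18, Tef 0.97 and 1.07, Bhlhe40 0.81 and 0.88, Per3 0.80 and 0.72, Arntl -1.30 and -1.94, and Nfil3 -1.80 and -0.68. Per1 had 0.02 at week 2 and a bound of -1.94 at week 10, and it was not the only member to turn. Of the 3 activators, 2 were higher and 1 lower by any amount at week 2. At week 10, 1 was higher and 2 were lower by 1.5-fold or more. At week 4, where 3.87% of genes were higher and 6.66% lower, Nr1d1 had 0.00, Nr1d2 0.16 and Tef 0.05, while Dbp had at least 1.80 and Arntl -0.71. Within the control diet Nr1d1 had signals of 435, 294 and 261 at weeks 2, 4 and 10, and within the high-fat diet 1399, 294 and 1258, so that the high-fat arrays of weeks 2 and 10 stood above the other 4. The hour of collection, to which these genes are sensitive, is not stated, and its part was not tested.

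Glutathione transferases, which attach glutathione to electrophiles and lipid peroxides, were lower on the high-fat array in most of the family. Of the 18 genes that carry the symbol of an alpha, kappa, mu, omega, pi, theta or zeta class, all above the floor on both arrays, 10 (55.6%) were at least 1.5-fold lower and 1 (5.56%) higher, where 8.79% and 6.83% of all genes were. The median difference was -0.65 against -0.03 over all genes. The 13 of them in the list of conjugation enzymes had a median of -0.87, with 9 lower and 1 higher by 1.5-fold, and the 5 outside it a median of 0.053, with 1 lower. The family was picked out after its values had been seen. Its members resemble each other in sequence, above all within the Gstm class, so probe sets may share signal between them.

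In the alpha class, which detoxifies lipid hydroperoxides, Gsta2 had a signal of 1846 in the control liver and 649.6 in the high-fat liver, 2.84-fold lower. Gsta3 had 10789 and 5669.8 (-0.93) and -0.33 on a dimmer probe set. Gsta4, which acts on the peroxidation product 4-hydroxynonenal, had 1085 and 595 (-0.87). All 3 were lower, and only Gsta3 had a further probe set.

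In the mu class, Gstm1 had 25894 and 13394 on its brightest probe set, and its 4 probe sets gave -0.95, -1.21, -0.88 and -0.47. Gstm3 had 1556 and 685 (-1.18), and its dimmer probe set was at 292 on the control and at the floor on the high-fat array. Gstm6 had -0.93, Gstm2 -0.83 and Gstm5 -0.59, each on 1 probe set. Gstm4 was level at -0.06, and Gstm7 had 1031 and 1204 (0.22), with 0.038 on its other probe set. In this class 5 of 7 genes were therefore at least 1.5-fold lower, with Gstm1 lower on every probe set, and Gstm4 and Gstm7 were not.

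Gstp1, a pi class enzyme, had 18987 and 10351 (-0.88). The theta class was divided, with Gstt3 at 2604 and 1588 (-0.71), Gstt2 at 1897 and 2922 (0.62) and Gstt1 at 0.11. Gstp3, also of the pi class, had -0.12. Gsto1, the omega class enzyme, had 5309.9 and 7292 (0.46), with 0.16 on its other probe set. Gstk1, of the kappa class, had 0.053, and Gstz1, a zeta class enzyme of tyrosine breakdown, -0.16. The median of the 18 genes was -0.17 at week 4 and 0.23 at week 10, where Gstm3 had 1.39 and Gsta2 -2.54.

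**Figure D4:**
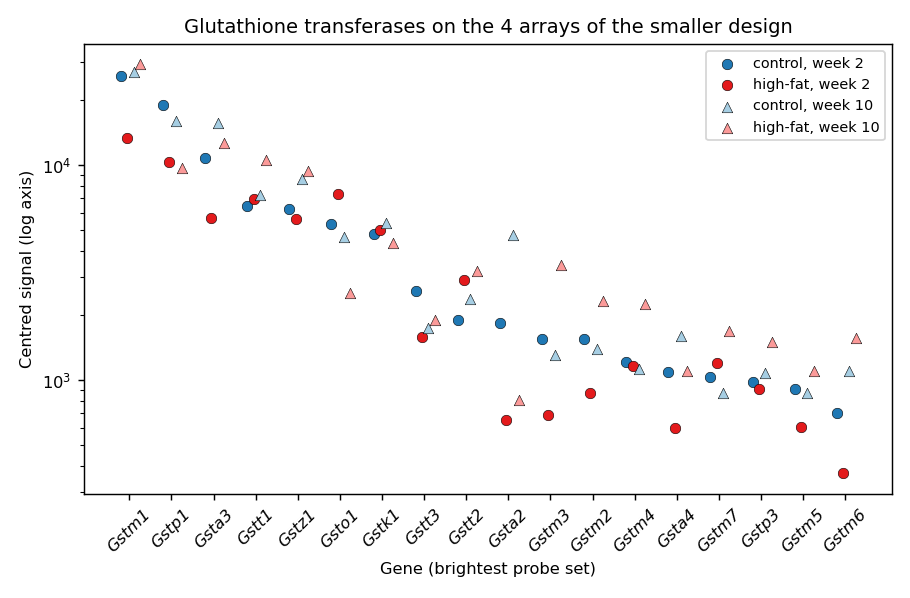
Centred signal on a log axis of 18 glutathione transferases on the control (blue) and high-fat (red) arrays of week 2 (circles) and week 10 (triangles), 1 array per point. At week 2 the red circle lies below the blue one for 13 of 18 genes, and at week 10 the red triangle lies above the blue one for 12 of 18.

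Other enzymes of xenobiotic handling lay partly with the transferases. Cyp2b10, the P450 that the constitutive androstane receptor switches on, had signals of 11486 in the control liver and 3484 in the high-fat liver, 3.30-fold lower, and its other 2 probe sets gave -1.38 and -1.74, so that all 3 showed the difference. Ephx1, an epoxide hydrolase, had 9828 and 6141 (-0.68), Ces2a, a carboxylesterase, 9108 and 5838 (-0.64), and Ugdh, which makes the sugar donor of glucuronidation, 3234 and 2131 (-0.60). Of 25 conjugation enzymes that passed the filter 11 (44%) were at least 1.5-fold lower and 2 (8%) higher, against 8.79% and 6.83% of all genes. Glutathione transferases were 9 of the lower ones and 1 of the higher. Among the other 12 conjugation enzymes 2 (16.7%) were lower, Ephx1 and Ugdh, and 1 (8.33%) higher, the sulfotransferase Sult1b1 (0.80), and their median was -0.26. Of 25 P450 enzymes of families 1 to 3, 1 (4%) was at least 1.5-fold lower, Cyp2b10, and 1 (4%) higher, Cyp1a1, at 286 and 466 (0.70). Both shares were under those of all genes, and the median of the 25 was -0.06.

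Nfe2l2, the factor that activates many transferase and antioxidant genes, had 1959.7 in the control liver and 1161 in the high-fat liver (-0.76) on its single probe set. Of 20 antioxidant genes that passed the filter 3 (15%) were at least 1.5-fold lower and none higher, against 8.79% and 6.83% of all genes. The other 2 were Txn1, thioredoxin, at -0.75, and Prdx4, a peroxiredoxin of the endoplasmic reticulum, at -0.78, but the further probe sets gave 1.13 for Txn1 and 0.11 and 0.84 for Prdx4.

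Several genes of lipid droplets, lipid uptake and lipolysis were higher on the high-fat array and none was lower by as much as 1.5-fold. Of 33 listed genes 29 were measured and 28 passed the filter, and 8 of the 28 (28.6%) were at least 1.5-fold higher where 6.83% of all genes were. The median of the group was 0.07, so the higher members were a minority and the rest lay around 0. On the second brightest probe set, which 9 of the genes had, none was 1.5-fold different and the median was 0.26.

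Of the proteins that coat and enlarge droplets, Cidec, which fuses droplets into larger ones, had 238 in the control liver and 571 in the high-fat liver (1.26). Plin3 had 504 and 1116 (1.15) and Plin4, a coat protein first known from fat cells, 280.5 and 434 (0.63). Fitm1, which helps droplets form, was at the floor on the control array and at 308 on the high-fat array, at least 1.99-fold higher. Plin2, the main droplet coat of hepatocytes, was bright on both arrays, at 18992 and 20094 (0.08), and Plin5 had 0.15. The droplet coat genes that differed were thus each measured by a single probe set, and the main coat protein did not differ by more than the error of a probe set.

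Of the lipases, Lpl, lipoprotein lipase, had 999 and 1711 (0.78), and its other probe set was at the floor on the control array and at 197 on the high-fat array, a bound of 0.35. Mgll, the monoglyceride lipase, had 6159.7 and 9291 (0.59), with 0.35 and 0.20 on its other probe sets. Pnpla2, the first lipase of triglyceride breakdown, had 0.12. Of the uptake and binding proteins, Fabp5 had 560.1 and 1016 (0.86), with 0.54 on the other probe set, and Fabp2, the intestinal type, 4959 and 8373 (0.76). Fabp1, the liver type, had -0.17 on its brightest probe set and -0.02 on the other. Cd36, the fatty acid transporter, had 1729.7 and 1677 (-0.04) on its brightest probe set, 0.54 on the next and 1.18 on a dim one, so its direction depended on the probe set.

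Apoa4, an apolipoprotein of triglyceride-rich particles, had 7567 in the control liver and 17793 in the high-fat liver, 2.35-fold higher, and 6300.3 and 17967 (1.51) on its other probe set. It was the only 1 of 18 lipoprotein genes (5.56%) at least 1.5-fold different, where 6.83% of all genes were higher and 8.79% lower. Its differences at weeks 4 and 10 were 0.85 and 1.69. Apob, the structural protein of these particles, had -0.16. Scarb1, the receptor for high-density lipoprotein, had 0.53, 0.81 and 1.18 on its 3 probe sets, with 3641 and 5266 on the brightest.

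Cpt1a, which controls the entry of fatty acids into mitochondria, was higher on all 3 of its probe sets, but by very different amounts. The brightest gave 7573 in the control liver and 10514 in the high-fat liver (0.47), and the others 715 and 2209.9 (1.63) and 366 and 1587 (2.12). The last 2 carry an ID that marks probes shared with other sequences. Of 28 genes of fatty acid oxidation and ketogenesis, all above the floor on both arrays, 18 were higher and 10 lower, 2 of them (7.14%) higher by 1.5-fold or more, a share near the 6.83% of all genes, and 1 lower, with a median of 0.13. None of the 14 beta-oxidation enzymes was 1.5-fold different, their range being -0.18 to 0.36. Bdh1, an enzyme of ketone body formation, had 4259.7 and 6778 (0.67), with 0.89 on the other probe set. Ppara, the receptor that activates these genes, had 2891 and 4049 (0.49), while Fgf21, one of its secreted targets, had -0.35. Pdk4, the kinase that turns glucose oxidation off, had 1371 and 679 (-1.01), and Pdk2, of the same family, 1011 and 1575 (0.64).

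In peroxisomes, Acaa1a, the thiolase that ends the chain-shortening cycle, had 1872 and 2838 (0.60) and 1.12 on its other probe set, both of which may share probes with the near-identical Acaa1b at 0.14. Of the acyl-CoA thioesterases, Acot4 had 906 and 523 (-0.79), with -0.89 on the other probe set, Acot3 -0.62, and Acot2 was at 242 on the control array and at the floor on the high-fat array, at least 1.56-fold lower. Acot1 had 0.12 and the omega-hydroxylase Cyp4a14 0.19. Acot4, Acot3 and Acot2, whose sequences are alike, were the 3 (16.7%) at least 1.5-fold lower among the 18 peroxisomal and microsomal genes that passed the filter. Of the 18, 1 (5.56%) was higher by as much, and 6 were lower by any amount. The shares of all genes were 8.79% lower and 6.83% higher.

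**Figure D5:**
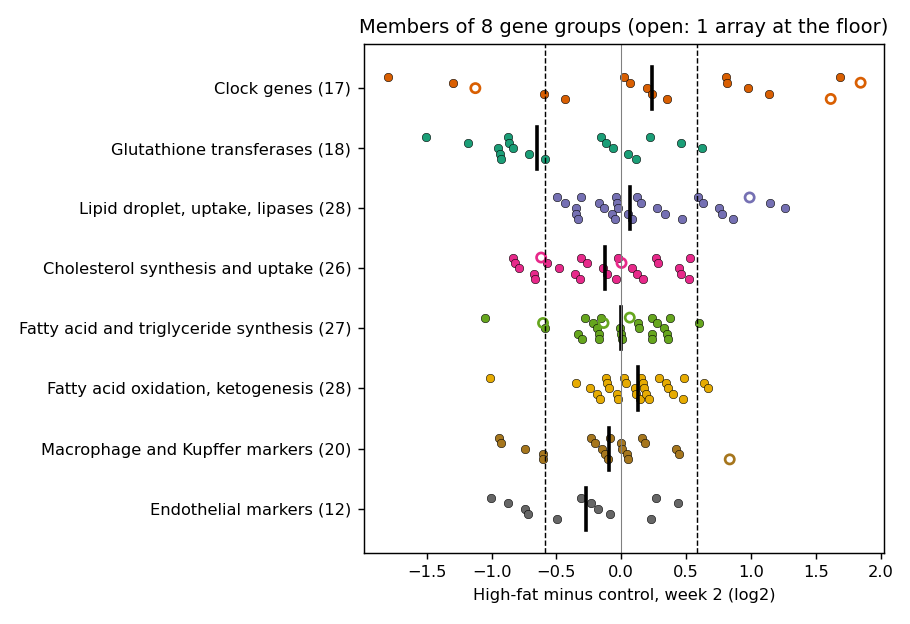
Week 2 differences on the log2 scale (horizontal axis) of the genes that passed the filter in 8 groups, with the number of genes in brackets, a bar at the median, open circles where an array was at the floor and dashed lines at 1.5-fold. The glutathione transferases are centred at -0.65, the cholesterol genes have 6 members below the left line and none beyond the right, and the droplet genes have 8 beyond the right line and none beyond the left.

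Enzymes of cholesterol synthesis were lower on the high-fat array along most of the pathway. Of 32 genes of sterol synthesis and uptake 26 passed the filter, and 6 of these (23.1%) were at least 1.5-fold lower and none higher, against 8.79% and 6.83% of all genes. Between squalene and cholesterol 10 of 11 enzymes were lower, with a median of -0.36, and 4 of 6 mevalonate enzymes, with a median of -0.40. The median over all genes was -0.03. The 9 genes of sterol sensing, uptake and efflux had a median of 0.29 and none was 1.5-fold different.

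Of the mevalonate enzymes, Hmgcs1, which makes the precursor of mevalonate and whose promoter window with the sterol element is printed above, had 4638 in the control liver and 3738 in the high-fat liver (-0.31), and its other 3 probe sets gave -0.35, -0.66 and -0.40. Fdps, farnesyl diphosphate synthase, had 572 and 323 (-0.82), Idi1 351 and 236 (-0.57) and Mvd 457 and 327 (-0.48). Of the later enzymes, Sqle, squalene epoxidase, had 468 and 271 (-0.79), Lss, which closes the sterol rings, 456 and 286 (-0.67), and Msmo1 277 and 175 (-0.66). Cyp51 was at 238 on the control array and at the floor on the high-fat array, at least 1.53-fold lower. The mean of all probe sets gave smaller differences for Fdps (-0.41), Lss (-0.22) and Cyp51 (-0.21). On its second brightest probe set Cyp51 had 0. Hsd17b7 had 1322 and 741 (-0.83), with -0.56 on the other probe set, and Fdft1 was the higher 1 at 0.08. Apart from Hmgcs1, Hsd17b7 and Fdft1, the enzymes named here had signals of 572 or less on both arrays.

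Abcg5 and Abcg8, the pair of transporters that returns sterol to bile, had 0.52 and 0.46, with 2371 and 3409, and 1630.2 and 2237. Abca1, which exports cholesterol to lipoproteins, had 0.44 on its brightest probe set and -0.60 on the next. Srebf2, which encodes SREBP-2, had -0.26 and -0.52 on its 2 probe sets. Of the 22 cholesterol genes with a promoter in the RefSeq table, Hmgcs1 was the 1 with a match to the sterol element. The difference of the list was larger at week 4, with a median of -0.97, and lay the other way at week 10, at 0.41.

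Cyp7a1, which sets the pace of bile acid synthesis, had 3086 in the control liver and 1476 in the high-fat liver, 2.09-fold lower, and 1281 and 281 (-2.19) on its other probe set. It was the only 1 of 23 bile acid genes (4.35%) at least 1.5-fold different at week 2 on the brightest probe set, where 8.79% of all genes were lower and 6.83% higher. On the second brightest, which 9 of them had, 5 were at least 1.5-fold lower and 1 higher, with a median of -0.67. Over the 3001 genes with such a probe set, 12.4% were lower and 8.5% higher by as much. Among these 5 were the bile acid transporters Slc10a1, at -0.67 there and -0.19 on its brightest probe set, and Slco1a1, at -1.14 and 0.21. Cyp8b1, a later enzyme of the same branch, was level at 9757 and 9733, and had -1.80 and -1.37 at weeks 4 and 10. Nr0b2, which encodes the repressor SHP, had 1932 and 1336 (-0.53). The export pumps Abcb11 and Abcc2 had 0.27 and 0.56.

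Fatty acid and triglyceride synthesis was close to level at week 2. Of 27 genes 1 (3.7%) was higher by 1.5-fold or more and 3 (11.1%) lower, against 6.83% and 8.79% of all genes, and the median was -0.01. Fasn, fatty acid synthase, had 1017 in the control liver and 914 in the high-fat liver (-0.16), and Srebf1, its activator, 848 and 1028 (0.28). Me1, malic enzyme, had 4329 and 2093 (-1.05) but -0.11 on its other probe set. Acacb, the acetyl-CoA carboxylase that restrains oxidation, had 656 and 436 (-0.59), and Pnpla3 was at 236 on the control array and at the floor on the high-fat array. Fads2, a desaturase, had 5173 and 7820.2 (0.60), with 0.01 on the other probe set. Scd1 had 0.14 on its brightest probe set and -0.96 on the other. All 3 lower genes were higher on the high-fat array at week 10, Me1 by 1.10, Acacb by 2.05 and Pnpla3 by 1.67.

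In glucose handling 4 of 18 genes (22.2%) were higher by 1.5-fold or more and none lower, against 6.83% and 8.79% of all genes. On the second brightest probe set, which 6 of them had, none was higher and 2 were lower, with a median of -0.13. Over all genes with such a probe set, 8.5% were higher and 12.4% lower. Pcx, pyruvate carboxylase, which opens gluconeogenesis, had 7372 and 12530.0 (0.77) on its own probe set, the transcript being also that of the 3'/5' ratio given above. Gys2, the liver glycogen synthase, had 2074 and 3159 (0.61). Pgk1 (0.78) and Foxo1 (0.70) were higher on their brightest probe sets, with -0.03 and 0.30 on the others of Pgk1 and -0.23 and -0.07 on those of Foxo1. G6pc, glucose-6-phosphatase, had 12344 and 8449 (-0.55), and Pck1 -0.22. Of 33 genes of the urea cycle and amino acid metabolism, 4 (12.1%) were at least 1.5-fold higher and 2 (6.06%) lower. The shares of all genes were 6.83% and 8.79%. Among them Gpt2, which interconverts alanine and pyruvate, had 0.66, 0.55 and 0.67 on its 3 probe sets. Prodh2, an enzyme of hydroxyproline breakdown, had 1981 and 4283 (1.11), and Agxt, which detoxifies glyoxylate, 4818 and 8424 (0.81). Glul, glutamine synthetase, had 0.91 and 0.11 on its 2 probe sets, and Phgdh was at 336 on the control array and at the floor on the high-fat array, at least 2.17-fold lower.

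Genes that answer to glucocorticoids and acute stimuli lay on both sides. Of 14 genes of the glucocorticoid list 5 (35.7%) were at least 1.5-fold lower and 2 (14.3%) higher, against 8.79% and 6.83% of all genes. Dusp1, a phosphatase of stress kinases, had 5028 in the control liver and 2411 in the high-fat liver (-1.06), Sgk1, a salt-regulating kinase, 1951 and 975 (-1.0), Ddit4, an inhibitor of mTOR signalling, 837 and 416 (-1.01), and Cdkn1a, which encodes the cell cycle inhibitor p21, 2583 and 1256 (-1.04). Mt2, a metallothionein, had 4969 and 9414 (0.92), and Mt1 0.47 and 0.98 on its 2 probe sets. The other higher gene was Zbtb16, a transcription factor, at 0.88, with -0.39 on its other probe set. Among immediate early genes, Fos had 1831 and 614 (-1.57) and Junb 377 and 831 (1.14), while Jun and Egr1 were level at 0.03 and -0.06. Trib3, a pseudokinase that stress and fasting raise, had 487 and 967 (0.99) and 1.48 on its other probe set.

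Of the genes with the largest differences above the floor outside these groups, few had a further probe set to set beside them. Malat1, a nuclear noncoding RNA, had 1212 and 4953 (2.03), while its other probe sets above the floor gave 0.48, 0.44 and -0.60. Nfib, a transcription factor, had 1.70 and -0.16 to 0.35 on the others, and Efnb1, an ephrin, 1.64 with 0.37 and -0.33. Hectd3 (1.90), the deacetylase Hdac6 (1.57) and the lysosomal enzyme Naglu (1.55) were measured by 1 probe set each, as was the transcription factor Foxf1 (-1.55). Arhgef40 (-1.99), Casr, the calcium-sensing receptor (-1.66), and Btc, the growth factor betacellulin (-1.61), had their further probe sets at the floor on both arrays. Nck1, an adaptor of tyrosine kinase signalling, had 933 and 296 (-1.66), and -0.97 on the other probe set. Krt8, a keratin of liver epithelium, had 0.53, 0.89 and 1.48 on its 3 probe sets. Krt23, the 1 of 9 listed cholangiocyte markers that passed the filter, was at the floor on the control array and at 555 on the high-fat array, at least 3.58-fold higher, and it was at the floor on the control arrays of weeks 4 and 10 too.

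Markers of the cells a liver sample holds were set beside these results. Of 15 hepatocyte markers 12 were measured and all 12 were far above the floor on both arrays, Alb, serum albumin, at 44816 and 37739.7. Their summed signal was 424969 in the control liver and 376942 in the high-fat liver. The median difference was -0.15 against -0.03 over all genes, and 10 of 12 were lower by any amount. Tat, tyrosine aminotransferase, was the 1 member (8.33%) at least 1.5-fold lower (-0.59), a share near the 8.79% of all genes. In bulk tissue fewer cells of a type and less RNA per cell cannot be told apart. Macrophage and Kupffer cell markers summed to 27620 and 25279, with 5 of 20 (25%) at least 1.5-fold lower and 1 (5%) higher, against 8.79% and 6.83% of all genes, and 12 lower and 8 higher by any amount. Their median was -0.09. On the second brightest probe set, which 4 of them had, none was 1.5-fold different and the median was 0.12. Vsig4, a Kupffer cell receptor, had 2055 and 1231 (-0.74), Cd14 -0.94, Adgre1 -0.60 and Tyrobp -0.60, while Itgax was at the floor on the control array and at 277 on the high-fat array, at least 1.79-fold higher, and Clec4f had -0.20, Cd5l -0.09 and C1qb -0.93 on its brightest but 0.24 and 0.37 on its other probe sets.

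Endothelial markers summed to 14127 in the control liver and 11141 in the high-fat liver, with 4 of 12 (33.3%) at least 1.5-fold lower, none higher and a median of -0.27. Fcgr2b, the Fc receptor of sinusoidal endothelium, had 2642 and 1440.3 (-0.88), and its 4 probe sets gave -0.65 to -0.88. Pecam1 had 335 and 167 (-1.0) and Tek -0.72, on 1 probe set each, and Lyve1 -0.74 with 0.23 on its other probe set. Kdr and Eng had 0.27 and 0.44, and Vwf and Tie1 were at the floor on all 6 arrays. Of 25 stellate cell and matrix genes 3 (12%) were at least 1.5-fold lower and 1 (4%) higher, and of 10 lymphocyte and neutrophil markers 2 (20%) were higher and none lower. These counts and that of the endothelial markers stand against 8.79% of all genes lower and 6.83% higher. Of 6 adipocyte markers measured, Adipoq and Lep were at the floor on all 6 arrays, Cidec was the 1 at least 1.5-fold higher, and the 4 that passed the filter summed to 10546 and 11492. The part of these cells in the differences above was not tested.

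The differences of week 2 were followed at the other weeks. Of the 107 genes at least 2-fold higher at week 2, 17 were at least 1.5-fold higher at week 4 and 4 were lower by as much, and at week 10 27 were higher and 23 lower. Of the 140 genes at least 2-fold lower, 16 were lower and 6 higher at week 4, and 27 were lower and 27 higher at week 10. Apoa4 was among the higher genes with the same direction on both probe sets at each week, and Cyp7a1 among the lower ones. For 33 of the 107 and 38 of the 140 genes the week 2 difference was a bound. At week 4 more of each set kept their direction than turned. The shares of all genes beyond 1.5-fold at that week were 3.87% upward and 6.66% downward. At week 10 the genes of week 2 were found about as often on either side, and 26.3% of all genes were at least 1.5-fold different there. This share was made up of 13.5% upward and 12.7% downward.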

How the data were processed

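The files hold the authors' deposited linear signal intensity per probe set for 6 liver arrays, in 2 tables by array design. The summarization software and its version are not given in the sources used here. RNA from snap-frozen lobes was labelled with biotin by in vitro transcription, per the labels' protocols.

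From these intensities, 64 control probe sets were left out and 22626 shared probe sets were put on the log2 scale. Arrays were centred on the median of all of these, then again on the median of those that passed the floor on all 6 arrays. The floor was the pooled 40th percentile (signal 155, log2 7.28), and lower values were set to it. Symbols came from the platform annotation (20380 probe sets with 1 symbol, 691 with several, 1555 unnamed here), updated through gene identifiers. The brightest probe set on average stood for each of 12393 genes, and 8846 genes above the floor on at least 3 arrays were used. At week 2, 8105 were above the floor on both arrays, 682 on 1 and 59 on none.

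Python 3.11.15 with pandas 2.3.3, statsmodels 0.14.6 and matplotlib 3.10.9 was used, and the scripts were tested on simulated data. With 1 array per diet and week there was no test, and precision is limited by the number of arrays. The 39 gene lists (885 genes, 777 measured, 701 used), their members and the comparison itself were chosen with earlier results of these data known, and the family of glutathione transferases after its week 2 values were seen, its members then being every measured gene with such a symbol. Some list members were not analysed here, and 1 gene that the naming rule picked is not reported here. Named genes are up to 12 per direction whose probe sets bear each other out, up to 8 per direction with the largest differences, list members at least 1.5-fold different (otherwise up to 4 of a list) and a fixed set of lipid and liver genes, and other names were chosen after their values were seen. Alternatives were other scalings, floors, filters and probe sets, and the smaller table alone, which was added after seeing the data.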

Additional observations from a re-analysis of the deposited data

Results flagged for a closer look

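The results named here had differences of opposite sign and at least 2-fold size in 2 of the 3 weeks, above the floor on all arrays compared. Each week has 1 array per diet, so the difference between weeks was not tested.

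Cdkn1a had -1.04 at week 2 and 1.46 at week 4. Gstm3 had -1.18 at week 2, 1.07 at week 4 and 1.39 at week 10. Malat1 had 2.03 at week 2 and -1.86 at week 4, and its other probe sets at week 2 gave -0.60 to 0.48. Me1 had -1.05 at week 2 and 1.10 at week 10, with -0.11 on its other probe set at week 2. Prss2, a pancreatic trypsinogen, had -1.43 at week 2 and 2.13 at week 10, and its second brightest probe set gave -0.45 at week 2. Samhd1, a nucleotide hydrolase, had 1.56 at week 2 and -1.41 at week 10, and a probe set not shared with other transcripts gave -0.27 at week 2.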

How the results depend on the processing

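Under 11 alternatives, 1495 of 1613 values of named genes moved by less than the standard deviation of a probe set (0.40), and 371 of 434 list medians by less than this value divided by the square root of the number of genes in the list. Under these and the values as deposited, 28 of 48 counts stayed within 1.5 times. With the values as deposited 51 genes were higher by 1.5-fold or more and 5103 lower, 19 and 1711 at least 2-fold, and the median over all genes was -0.67. Floors at the 20th and 60th percentiles gave 1227 and 284 genes at least 1.5-fold higher, 1425 and 340 lower, and at least 2-fold 420 and 41 higher and 503 and 44 lower. Quantile normalization gave 173 genes at least 2-fold higher. The mean of all probe sets gave 386 genes 1.5-fold higher or more, and 71 and 93 genes 2-fold higher and lower or more. The second brightest probe set, which 3001 genes had, gave 255 and 372 at least 1.5-fold, and 59 and 82 at least 2-fold.

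The median of the clock list was 0.35 with quantile normalization, 0.13 with no filter, 0.023 with the mean of all probe sets, 0.58 without shared probe sets and -0.15 on the second brightest probe set. That probe set also gave medians of -0.35 for cholesterol synthesis, 0.035 for fatty acid oxidation, 0.26 for lipid droplet genes and -0.49 for endothelial markers. Medians turned sign for bile acid genes (0.04 to -0.67), glucose genes (0.05 to -0.13) and macrophage markers (-0.09 to 0.12). Among others, they also did for antioxidant (0.000296), ribosomal (0.029), amino acid (-0.078) and male-predominant genes (-0.25). Hepatocyte markers had 0.021 with quantile normalization.

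Signs also turned for single genes. The mean of all probe sets gave 0.044 for Mmp2, -0.044 for Per3, 0.058 for Prdx4, 0.19 for Txn1 and 0.077 for Vim. The second brightest gave 0.24 for C1qb, -0.33 for Efnb1, -0.23 for Foxo1, 0.23 for Lyve1, 0.71 for Mmp2, -0.99 for Nr1d2, -0.75 for Per3, -0.033 for Pgk1, 0.19 for Pik3r1, 0.11 for Prdx4, 0.46 for Rrm1, -0.27 for Samhd1, 0.063 for Slc11a2, 1.13 for Txn1, 0.55 for Vim and -0.39 for Zbtb16. Without shared probe sets Foxo1 had -0.23, Malat1 -0.60, Pgk1 -0.033, Samhd1 -0.27 and Zbtb16 -0.39. The smaller table alone, an alternative chosen after seeing the data, gave -0.33 for Efnb1 and -0.38 for Zbtb16. The cause of these changes was not tested. No paired analysis was possible because each diet has 1 array per week.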

Other observations

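Further groups of liver genes had small median differences at week 2, with some members far out. Of 16 genes of heme and iron, Cpox, an enzyme of heme synthesis, had a signal of 2253 in the control liver and 5805 in the high-fat liver (1.37), but 0.24 on its other probe set. Tfrc, the transferrin receptor that takes up iron, had 1201 and 760.3 (-0.66), with -0.41 on its other probe set. The thyroid hormone receptors Thra and Thrb had -0.72 and -0.68, on 1 probe set each above the floor, and Nr4a1, a nuclear receptor that acute signals raise, had 646 and 1257 (0.96). Igfbp3, a carrier of insulin-like growth factors, had 187 and 355 (0.93).

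Of 50 genes of oxidative phosphorylation 41 were lower, by small amounts, with a median of -0.12 against -0.03 over all genes. At least 1.5-fold lower was 1 (2%), where 8.79% of all genes were. It was Ndufb5, a subunit of complex I, at -0.71 with -0.20 on its other probe set. Of 46 genes of acute phase, complement and coagulation 3 (6.52%) were at least 1.5-fold higher and 1 lower, a share of higher genes close to the 6.83% of all genes. Orm3 was at the floor on the control array and at 485 on the high-fat array, at least 3.13-fold higher, coagulation factor F5 had 4272 and 7447 (0.80) with 0.29 on its other probe set, Klkb1, plasma prekallikrein, had 2999 and 4979.5 (0.73), and Apcs, the mouse acute phase protein serum amyloid P, -0.59. Of the 11 cell cycle genes that passed the filter 3 (27.3%) were at least 1.5-fold lower and 1 (9.09%) higher. The shares of all genes were 8.79% and 6.83%, and the lowest cell cycle gene had -1.19. Among them Pcna had 1587 and 864 (-0.88) and Aurka -0.87, and Ccnd1, cyclin D1, 972 and 1575 (0.70) with -0.07 and 0.90 on its other probe sets. None of the 22 genes of the endoplasmic reticulum was 1.5-fold different.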
